A study of Mus musculus with 18 samples.

Results

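The genes described here are 45 genes of G2 and mitosis, listed by symbol from Mki67, Top2a and Cdk1 to Espl1 and Pttg1. They were found as the rows of the deposited count table whose Ensembl identifier maps to those symbols in the mouse GENCODE M21 annotation, and all 45 were found among 55414 rows. Gene positions below are GENCODE M21 gene models on GRCm38. The measurements were RNA-seq read counts per gene in 18 libraries from Wild Type C57BL/6J mice. In a first experiment whole spleens were collected after 30 days of filtered air (4 libraries) or of fine airborne particles, PM2.5 (4 libraries). In a second experiment macrophages were isolated from spleens of mice given air (5 libraries) or PM2.5 (5 libraries) for 30 days, and the description of that experiment also mentions filtered air after the exposure without giving its length. The labels call the exposed samples CAP, and these are taken as the PM2.5 samples of the design text. Age, sex and the number of animals per library were not in the labels used here, nor was the way the macrophages were isolated. The titles call the libraries biological replicates, so the tests below measure the spread between these libraries. The macrophage library titled as CAP replicate 1 carries an air tag for its treatment. It was grouped by its title, and results that depend on it are given both ways.

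Mitosis is driven by CDK1 bound to cyclins A and B, and most of the genes that carry it out are transcribed late in the cell cycle and shut off in resting cells. Their transcription is held back by the DREAM complex in cells that do not divide, and is switched on by B-MYB with the MuvB core and then by FOXM1. In the adult mouse spleen the dividing cells include erythroblasts of the red pulp, B cells of germinal centres, plasmablasts and activated T cells, while mature macrophages divide rarely. A tissue sample or a preparation of many cells therefore reads these genes as the summed RNA of whichever cells in it are dividing.

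The promoters of these genes are known for 2 short motifs, TTTGAA, the cell cycle genes homology region read by the MuvB core, and CCAAT, the box bound by NF-Y. RefSeq promoter windows on GRCm38.p6, from 250 bases before to 50 bases after the annotated start, were at hand for 37 of the 45 genes. On either strand, TTTGAA was in 29 of the 37 windows (78.4%), against 20.2% of the windows of 27025 genes. CCAAT was in 29 of the 37 (78.4%), against 41.1%, and 19 of the 37 (51.4%) held 2 or more, against 13.3%. Both motifs were in 25 of the 37 (67.6%), against 7.97% of all windows, and a base was allowed to count toward more than 1 motif. The E2F sites TTTGGCGC or TTTCGCGC were in 2 of the 37 (5.41%), against 0.929%. TTTGAA began within 50 bases of the start in 26 of the 37, a count that was not made over all windows. From 100 bases before to 50 bases after the start it was in 27 of the 37 (73.0%), against 9.23% of all windows. These counts describe letters in the windows and were not tested. The 7 windows below belong to the genes that the results turn on. Ccnb1, Cks2, Bub1, Nuf2 and Cdc20 are the genes with a window whose air and PM2.5 macrophage libraries did not overlap. Kif20b is the 1 gene whose air and PM2.5 spleens did not overlap. Pttg1 is the 1 gene for which PM2.5 replicate 2 was not the highest spleen. Each is shown 5′ to 3′ on the gene's strand from 100 bases before to 50 bases after the start, with TTTGAA and CCAAT, or their complements TTCAAA and ATTGG, in capitals.

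Ccnb1, chr13:100786437-100786586, minus strand: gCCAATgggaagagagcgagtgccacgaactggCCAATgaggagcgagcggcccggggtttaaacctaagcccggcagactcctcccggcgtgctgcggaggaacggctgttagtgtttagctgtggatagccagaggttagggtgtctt
Cks2, chr13:51645132-51645281, plus strand: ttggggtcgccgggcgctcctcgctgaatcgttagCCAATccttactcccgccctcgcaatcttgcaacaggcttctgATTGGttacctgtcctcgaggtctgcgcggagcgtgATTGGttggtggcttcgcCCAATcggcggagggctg
Bub1, chr2:127831810-127831959, minus strand: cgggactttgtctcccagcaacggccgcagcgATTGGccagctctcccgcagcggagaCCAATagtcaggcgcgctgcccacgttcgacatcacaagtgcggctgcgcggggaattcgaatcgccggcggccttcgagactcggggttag
Nuf2, chr1:169531415-169531564, minus strand: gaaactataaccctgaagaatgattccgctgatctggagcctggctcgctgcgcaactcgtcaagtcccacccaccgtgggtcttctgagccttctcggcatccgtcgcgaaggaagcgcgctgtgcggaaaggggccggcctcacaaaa
Cdc20, chr4:118437294-118437443, minus strand: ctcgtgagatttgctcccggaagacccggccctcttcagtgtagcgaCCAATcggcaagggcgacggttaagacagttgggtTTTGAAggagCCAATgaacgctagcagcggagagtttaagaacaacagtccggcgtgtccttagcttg
Kif20b, chr19:34922258-34922407, plus strand: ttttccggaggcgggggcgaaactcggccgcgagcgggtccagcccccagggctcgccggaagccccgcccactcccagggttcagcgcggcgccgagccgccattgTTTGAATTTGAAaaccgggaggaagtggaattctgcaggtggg
Pttg1, chr11:43425932-43426081, minus strand: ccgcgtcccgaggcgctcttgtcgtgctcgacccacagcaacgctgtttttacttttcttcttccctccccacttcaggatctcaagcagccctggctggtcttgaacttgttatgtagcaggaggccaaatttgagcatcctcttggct

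Cdc20 held a TTTGAA between 2 CCAAT boxes, Kif20b held a double TTTGAA and no CCAAT, and Ccnb1, Cks2 and Bub1 held CCAAT boxes alone. Nuf2 and Pttg1 held neither motif, as did Birc5 and Nusap1 over the longer window. For Pttg1 the RefSeq start lies inside the GENCODE gene model, downstream of its first base.

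Levels are given as CPM, a gene's read count relative to the size of its library, scaled between the 18 libraries by the trimmed mean of M-values (TMM), and in replicate order. The libraries held 16493694 to 33844807 counts. Markers of red pulp macrophages summed to 26126 to 36571 CPM in the air macrophages against 558 to 946 CPM in the air spleens. B cell markers still summed to 2642 to 4175 CPM in the air macrophages (air spleens, 6330 to 7321 CPM) and T cell markers to 189.7 to 247 CPM (air spleens, 1236 to 1661 CPM), so the preparations held RNA of other cells. Erythroblast markers were higher in the air macrophages, at 350.5 to 3339 CPM (air spleens, 188 to 329 CPM). All 20 of them had a higher mean there (against 49.1% of all genes tested), with a median log2 fold change of 3.96. Libraries stood apart within both experiments, and fold changes of the 45 genes are given with all libraries and without spleen PM2.5 replicate 2 or macrophage air replicate 3. The sum of the 45 genes was 1333, 1258, 983 and 1048 CPM in the air spleens and 1119, 3643, 1128 and 1392 CPM in the PM2.5 spleens, where replicate 2 stood far above the other 7. In macrophages the sum was 1063, 1493, 767, 1544 and 1770.4 CPM with air, where replicate 3 was lowest, and 1346, 2015, 1877, 1639.5 and 2366 CPM with PM2.5, where replicate 5 was highest.

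In whole spleen, 43 of the 45 genes had a higher mean with PM2.5 than with air, but no gene of the 45 passed the test, and 1 spleen carried most of the difference. The median log2 fold change of the 45 was 0.71, against 0.02 over all 16551 genes tested, and 51.8% of those were higher. The edgeR quasi-likelihood test called 0 of the 45 at an adjusted p under 0.05, where 2 genes of all tested were called (0.0121%), and all 45 genes entered the test. At an unadjusted p under 0.05 there were 10 higher genes of the 45 (22.2%, against 8.93% of all genes tested) and 0 lower (against 7.76%). DESeq2 called 830 genes (5.01%), among them Kif20b of the 45 with an adjusted p of 0.0493, and gave no adjusted p for Mki67 and Dlgap5. PM2.5 replicate 2 was the highest of the 8 spleens for 44 of the 45 genes, Pttg1 being the exception. It stood over 2 times above the highest other spleen for 32 genes and over 3 times for 12, among them Ccna2, Ccnb1, Ccnb2, Cenpf, Kif11, Anln and Mki67. With that library left out the median was 0.13, with 30 genes higher and 15 lower, and 1 gene was higher and 1 lower at an unadjusted p under 0.05 (2.22% each, against 8.69% and 6.58% of all genes tested). With PM2.5 replicates 2 and 4 left out the median was -0.05, with 20 genes higher. The other 3 PM2.5 spleens lay inside the range of the air spleens for 21 of the 45 genes.

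**Figure D1:**
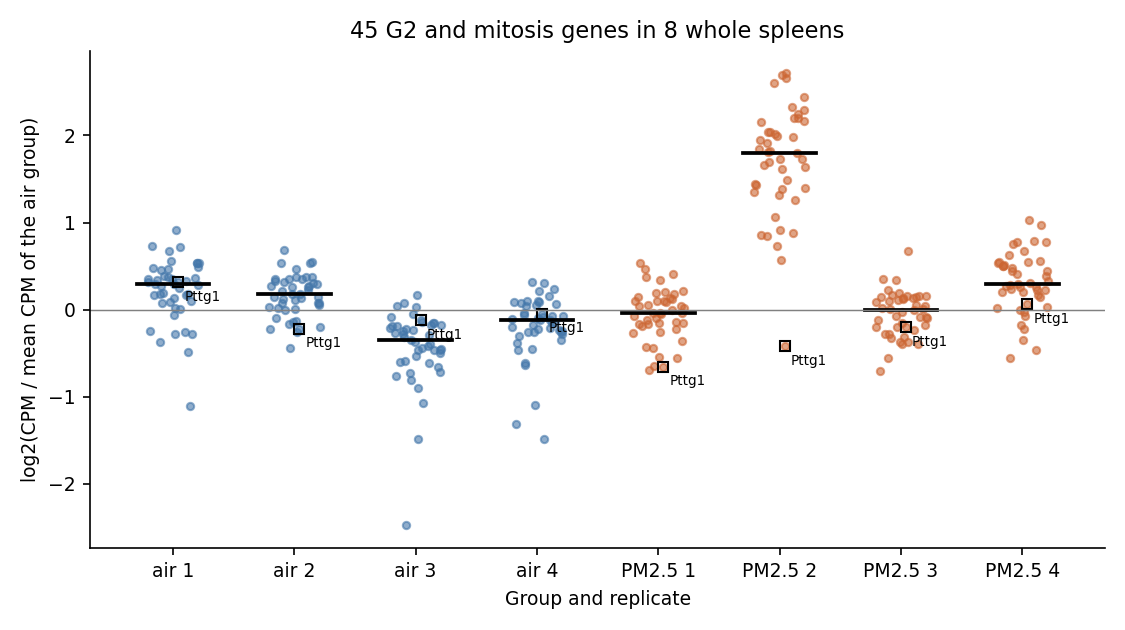
Level of each of the 45 genes in the 8 whole spleens, as log2 of its CPM over its mean CPM in the air spleens (vertical axis), by library (horizontal axis). Each point is a gene, black bars are medians over the 45, and squares mark Pttg1. PM2.5 replicate 2 stands above the other 7 spleens for 44 of the 45 genes.

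In the isolated macrophages all 45 genes had a higher mean with PM2.5 than with air, again without a gene that passed the adjusted threshold. The median log2 fold change was 0.56, against 0.01 over all 15696 genes tested, of which 51.4% were higher. edgeR called 0 genes of all tested (0%), so 0 of the 45, while 1704 genes of all had an unadjusted p under 0.05. Of the 45, 27 were higher at an unadjusted p under 0.05 (60%, against 6.24% of all genes tested) and 0 lower (against 4.61%). DESeq2 called 175 genes (1.11%), among them Bub1 (adjusted p = 0.0144) and Cks2 (adjusted p = 0.0294). Every PM2.5 library lay above every air library for 7 genes, Ccnb1, Cks2, Bub1, Aurkb, Nuf2, Tpx2 and Cdc20 (15.6%, against 1.38% of all genes tested). At least 4 of the 5 PM2.5 libraries lay above the air median for 41 of the 45, a count that was not made over all genes.

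With 1 macrophage library left out at a time, the median of the 45 genes ranged from 0.37 without air replicate 3 to 0.67 without air replicate 5, and 44 or 45 genes stayed higher. Leaving out PM2.5 replicate 5 gave 0.45, and leaving out air replicate 1 gave 0.46. Air replicate 3 was the lowest of the 10 macrophage libraries for 41 of the 45 genes, Incenp, Kif20b, Kif23 and Pttg1 being the exceptions, and PM2.5 replicate 5 was the highest for 38. Without air replicate 3 all 45 genes remained higher, with a median of 0.37 and 20 genes at an unadjusted p under 0.05 (44.4%, against 4.03% of all genes tested). PM2.5 replicate 1, the library with the air tag, lay above the air median for 26 genes and below it for 19, among them Mki67, Cenpf, Espl1, Cenpe and Top2a. Left out, it gave 44 genes higher, a median of 0.61, 33 genes at an unadjusted p under 0.05 (73.3%, against 6.3% of all genes tested) and 16 genes without overlap between the groups (35.6%, against 2.32%). Counted as air, it gave 44 genes higher, a median of 0.55 and 30 genes at an unadjusted p under 0.05 (66.7%, against 3.86%).

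**Figure D2:**
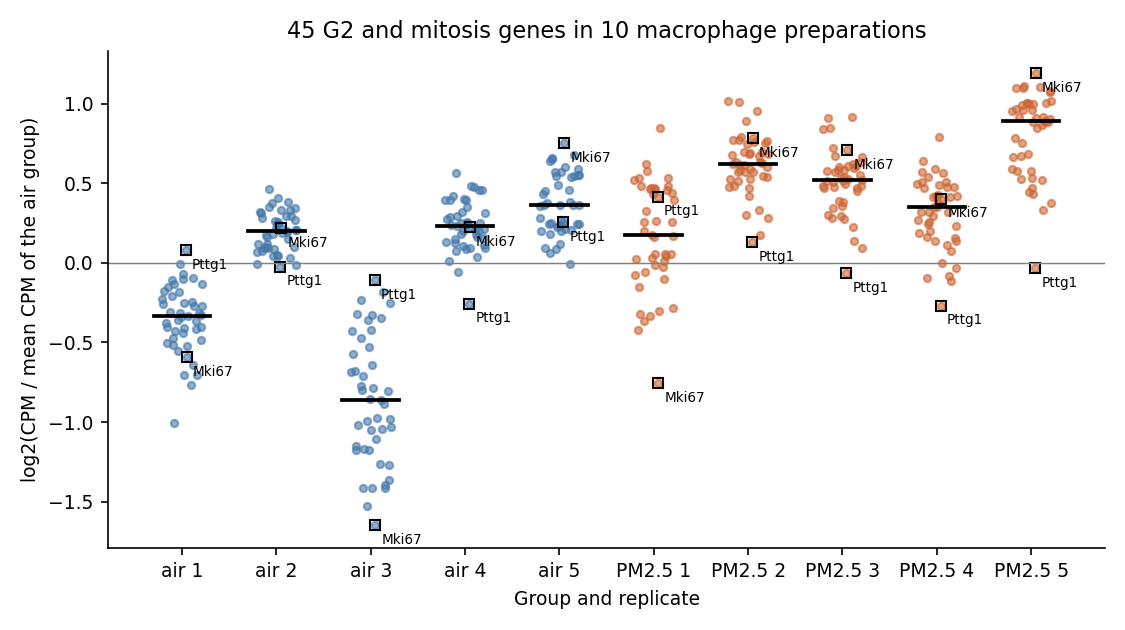
Level of each of the 45 genes in the 10 macrophage libraries, as log2 of its CPM over its mean CPM in the air macrophages (vertical axis), by library (horizontal axis). Each point is a gene, black bars are medians over the 45, and squares mark Mki67 and Pttg1. The medians of PM2.5 replicates 2, 3 and 5 lie above all 5 air medians, and air replicate 3 is lowest.

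Markers of other cell types were read beside these sums. Erythroblast markers were highest in the same library as the 45 genes in each experiment. Plasma cell markers were highest in that library in spleen but not in macrophages, and the part of either in the differences was not tested. In bulk samples, more dividing cells and more of this RNA per cell cannot be told apart. The 20 erythroblast markers summed to 329, 188, 207 and 225 CPM in the air spleens and 219, 4590.4, 602 and 1295 CPM in the PM2.5 spleens, with replicate 2 highest and replicate 4 next, and all 20 had a higher mean with PM2.5. E2f2 is among these markers and also on the list of cell cycle regulators below. It averaged 61.3 CPM in air spleens and 96.3 CPM in PM2.5 spleens, so the erythroblast sum also holds a cell cycle gene. Slc4a1, the anion exchanger of the red cell membrane, averaged 8.36 ± 8.71 CPM in air spleens and 362 ± 505 in PM2.5 spleens (SD, n = 4 each), and Alas2, the first enzyme of erythroid heme synthesis, 21.5 ± 25.8 and 238 ± 246. In macrophages the erythroblast sum was 902, 2029, 350.5, 1526 and 3339 CPM with air and 1043, 2441, 2431, 1349 and 3686 CPM with PM2.5, and the lowest and the highest library were those of the 45 genes. In the air spleens plasma cell markers summed to 942, 1202, 618 and 792 CPM. In the PM2.5 spleens they summed to 1308, 1500.2, 983 and 1083 CPM, with replicate 2 highest. Plasma cell markers summed to 910.2, 1345, 925, 2640.2 and 997 CPM in air macrophages and 5063, 1621, 2416, 4547 and 2199.6 CPM in PM2.5 macrophages, and here PM2.5 replicates 1 and 4 were highest, the 2 PM2.5 libraries with the lowest sums of the 45 genes. Erythroblast markers had a median log2 fold change of 4.41 in spleen and 0.58 in macrophages (20 of 20 higher in each). Without spleen PM2.5 replicate 2 the erythroblast median was 2.82 (20 of 20 higher). In spleen 19 of the 20 were higher at an unadjusted p under 0.05 in edgeR, and 18 without that library (against 8.93% and 8.69% of all genes tested). Without macrophage air replicate 3 the erythroblast median was 0.26 (19 of 20 higher). Plasma cell markers had medians of 0.36 in spleen (7 of 10 higher) and 0.93 in macrophages (10 of 10). Their medians were 0.20 without that spleen and 0.81 without that macrophage library. In macrophages 8 plasma cell and 0 erythroblast markers were higher at an unadjusted p under 0.05 in edgeR (6.24% of all genes tested). With PM2.5 replicate 1 counted as air the plasma cell median was 0.34, with 0 of 10 at that threshold. Germinal centre B cell markers had a median log2 fold change of -0.05 in spleen and 0.74 in macrophages (6 of 8 higher), and neutrophil markers of 2.49 and 2.01. Of the 12 neutrophil markers 8 were tested in spleen and 10 in macrophages. They summed to 88.4, 3.84, 6.57 and 6.64 CPM in the air spleens and 61.2, 20.2, 126 and 229.6 CPM in the PM2.5 spleens, so these groups overlapped. T cell, B cell and red pulp macrophage markers had medians of -0.29, -0.19 and 0.75 in spleen and of 0.34, 0.11 and -0.19 in macrophages. In spleen the medians were 0.32 for natural killer cell, 0.78 for megakaryocyte, 0.50 for progenitor, 5 for mesothelial and -2.41 for liver markers. No gene of these lists was called by edgeR in either exposure comparison. In spleen DESeq2, which called 5.01% of all genes tested, called 16 of 20 erythroblast, 7 of 7 mesothelial, 6 of 16 red pulp macrophage, 3 megakaryocyte, 1 natural killer cell, 1 neutrophil and 1 progenitor marker higher and 2 B cell and 1 T cell marker lower. In macrophages, where it called 1.11% of all genes tested, it called 4 neutrophil, 2 plasma cell, 1 germinal centre and 1 progenitor marker higher. Every marker listed had counts in at least 1 library, and Ly6g, a marker of mature neutrophils, was at 0 in all 4 air spleens. Gp1bb of the megakaryocyte list was at 0 in all air macrophages. Serpina1a, Ttr, Fgb and Ahsg of the liver list were at 0 in all macrophage libraries of both groups.

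**Figure D3:**
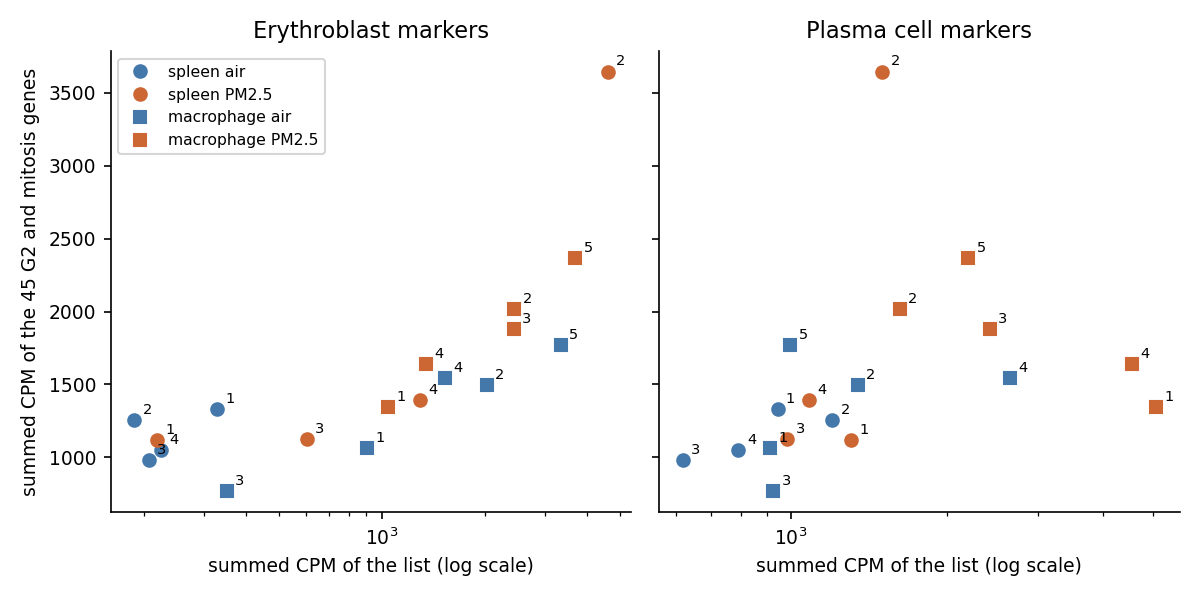
Summed CPM of the 45 genes (vertical axis) against the summed CPM of 20 erythroblast markers (left) and 10 plasma cell markers (right, horizontal axes on log scales) in the 18 libraries. Circles are spleens, squares macrophages, blue air and orange PM2.5, with replicate numbers. Spleen PM2.5 replicate 2 is highest on both axes at the left, and macrophage PM2.5 replicates 1 and 4 lie far right in the plasma cell panel.

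Among the regulators of CDK1, all 6 genes had a higher mean with PM2.5 in both experiments (median log2 fold change 0.93 in spleen and 0.63 in macrophages). Cdk1 (chr10:69335146-69352938, minus strand) encodes the kinase that drives entry into mitosis. Cdk1 was at 23.9, 19.6, 13.5 and 20.8 CPM in the air spleens and at 13.4, 64.5, 19.1 and 22.4 CPM in the PM2.5 spleens. Cdk1 stood at 10.1, 16.2, 6.63, 18 and 17.6 CPM in the air macrophages and at 19, 22, 19.6, 17.5 and 26.6 CPM in the PM2.5 macrophages. The PM2.5 spleens held both the lowest and the highest value, and in macrophages the PM2.5 libraries other than replicate 4 lay above all air libraries. Cdk1 had a log2 fold change of 0.63 (SE 0.428, edgeR adjusted p = 0.497) in spleen, -0.07 with PM2.5 replicate 2 left out, and of 0.63 (SE 0.245, adjusted p = 0.392) in macrophages, 0.44 with air replicate 3 left out. Ccnb1 (chr13:100778650-100786570, minus strand) encodes cyclin B1, the partner of CDK1 at mitotic entry, and 23.4% of its 50-base runs also occur in a pseudogene, Ccnb1-ps, so its counts are uncertain to that extent. Ccnb1 was at 14.3, 16.2, 11.2 and 9.22 CPM in the air spleens and at 11.4, 56.8, 12.9 and 18 CPM in the PM2.5 spleens. Ccnb1 stood at 10.4, 16.7, 6.10, 16.8 and 18.8 CPM in the air macrophages and at 19.9, 23.5, 25.8, 20.4 and 29.4 CPM in the PM2.5 macrophages. PM2.5 spleens 2 and 4 lay above all air spleens, and the macrophage groups did not overlap. Ccnb1 had a log2 fold change of 0.97 (SE 0.47, edgeR adjusted p = 0.331) in spleen, 0.16 with PM2.5 replicate 2 left out, and of 0.80 (SE 0.257, adjusted p = 0.326) in macrophages, 0.60 with air replicate 3 left out. Ccna2 (chr3:36564865-36572150, minus strand), cyclin A2, acts from S phase to early mitosis. Ccna2 was at 39.6, 28.8, 19.4 and 21.5 CPM in the air spleens and at 26.6, 148, 28.2 and 46.9 CPM in the PM2.5 spleens. Ccna2 stood at 25.3, 42.6, 14.7, 41 and 53.3 CPM in the air macrophages and at 42.2, 60.1, 54.9, 41.5 and 74.3 CPM in the PM2.5 macrophages. Again PM2.5 spleens 2 and 4 lay above the air range, and the macrophage groups overlapped, with PM2.5 replicates 1 and 4 inside the air range. Ccna2 had a log2 fold change of 1.21 (SE 0.507, edgeR adjusted p = 0.266) in spleen, 0.33 with PM2.5 replicate 2 left out, and of 0.64 (SE 0.294, adjusted p = 0.466) in macrophages, 0.43 with air replicate 3 left out. Cks2 (chr13:51645232-51650660, plus strand), a small subunit that binds CDK1, shares 29.7% of its 50-base runs with the pseudogene Gm15452. Cks2 was at 31.8, 14.8, 15.7 and 17.7 CPM in the air spleens and at 12.8, 41.9, 17.4 and 24.5 CPM in the PM2.5 spleens. Cks2 stood at 12.3, 14.4, 10.9, 17.4 and 14.8 CPM in the air macrophages and at 19.3, 20.7, 18.3, 17.8 and 22.4 CPM in the PM2.5 macrophages. Its air spleens were split, with replicate 1 far above the other 3, and its macrophage groups did not overlap. Cks2 had a log2 fold change of 0.28 (SE 0.362, edgeR adjusted p = 0.741) in spleen, -0.11 with PM2.5 replicate 2 left out, and of 0.50 (SE 0.127, adjusted p = 0.267) in macrophages, 0.42 with air replicate 3 left out. Cdc25c encodes a phosphatase that activates CDK1. Cdc25c was at 2.71, 3.80, 0.426 and 2.53 CPM in the air spleens and at 2.46, 9.75, 1.89 and 3.31 CPM in the PM2.5 spleens. Cdc25c stood at 1.20, 3.32, 0.903, 2.83 and 3.79 CPM in the air macrophages and at 3.02, 3.68, 3.83, 3.01 and 5.16 CPM in the PM2.5 macrophages. Only PM2.5 replicate 2 left the air range in spleen, and 3 of the 5 PM2.5 macrophage libraries were inside theirs. Cdc25c had a log2 fold change of 0.89 (SE 0.647, edgeR adjusted p = 0.527) in spleen, 0.13 with PM2.5 replicate 2 left out, and of 0.68 (SE 0.356, adjusted p = 0.526) in macrophages, 0.45 with air replicate 3 left out. Ccnb2, cyclin B2, ranged from 8.09 to 19.3 CPM in air spleens and from 10.4 to 65.4 CPM in PM2.5 spleens. Ccnb2 showed a log2 fold change of 0.99 (SE 0.549, edgeR adjusted p = 0.396) in spleen, 0.01 with PM2.5 replicate 2 left out, and of 0.59 (SE 0.294, adjusted p = 0.505) in macrophages, 0.37 with air replicate 3 left out.

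The 5 mitotic kinases were higher on average with PM2.5 in both experiments, and without spleen PM2.5 replicate 2 only Aurka of the 5 was. Plk1 (chr7:122159439-122169873, plus strand), Polo-like kinase 1, acts from centrosome maturation to cytokinesis. Plk1 was at 6.5, 20.4, 12.6 and 16.5 CPM in the air spleens and at 12, 48.9, 10.7 and 15.5 CPM in the PM2.5 spleens. Plk1 stood at 10.8, 14.2, 7.53, 19.1 and 17.9 CPM in the air macrophages and at 19.1, 22.5, 21.2, 18.5 and 25.8 CPM in the PM2.5 macrophages. Air spleen replicate 1 was the lowest of the 8, PM2.5 replicate 2 the highest, and the macrophage groups met at about 19 CPM, where PM2.5 replicates 1 and 4 lay beside air replicate 4. Plk1 had a log2 fold change of 0.64 (SE 0.499, edgeR adjusted p = 0.554) in spleen, -0.13 with PM2.5 replicate 2 left out, and of 0.64 (SE 0.219, adjusted p = 0.356) in macrophages, 0.47 with air replicate 3 left out. Aurka (chr2:172356190-172370535, minus strand), Aurora A, builds the spindle poles. Aurka was at 14.7, 10.1, 6.48 and 14.1 CPM in the air spleens and at 8.35, 45.8, 10.8 and 19.4 CPM in the PM2.5 spleens. Aurka stood at 8.13, 11.8, 5.23, 11.8 and 15.2 CPM in the air macrophages and at 14.4, 16.9, 15.8, 12.8 and 20.9 CPM in the PM2.5 macrophages. PM2.5 spleens 2 and 4 lay above the air spleens, and in macrophages air replicate 5 alone reached into the PM2.5 range. Aurka had a log2 fold change of 0.90 (SE 0.489, edgeR adjusted p = 0.385) in spleen, 0.20 with PM2.5 replicate 2 left out, and of 0.65 (SE 0.243, adjusted p = 0.381) in macrophages, 0.47 with air replicate 3 left out. Bub1 (chr2:127801122-127831865, minus strand), a checkpoint kinase of the kinetochore, had the smallest unadjusted p of the 45 in macrophages. Bub1 was at 10.8, 8.84, 7.47 and 7.58 CPM in the air spleens and at 7.22, 22.1, 7.55 and 8.82 CPM in the PM2.5 spleens. Bub1 stood at 7.10, 8.27, 5.16, 10.9 and 10.1 CPM in the air macrophages and at 11.9, 16.8, 14.9, 11.7 and 16.1 CPM in the PM2.5 macrophages. Spleen PM2.5 replicate 1 was the lowest of the 8 spleens and replicate 2 the highest, whereas every PM2.5 macrophage library lay above every air library. Bub1 had a log2 fold change of 0.41 (SE 0.36, edgeR adjusted p = 0.612) in spleen, -0.12 with PM2.5 replicate 2 left out, and of 0.80 (SE 0.193, adjusted p = 0.258) in macrophages, 0.65 with air replicate 3 left out. Bub1b (chr2:118598211-118641591, plus strand) encodes BubR1 of the same checkpoint. Bub1b was at 25.6, 23.7, 13.3 and 18.7 CPM in the air spleens and at 22.1, 37.4, 17.3 and 14.8 CPM in the PM2.5 spleens. Bub1b stood at 27.7, 34, 23.3, 33.5 and 29.5 CPM in the air macrophages and at 27.6, 37.3, 34.6, 32 and 42.4 CPM in the PM2.5 macrophages. The groups overlapped in both experiments, and 3 of the 5 PM2.5 macrophage libraries lay above the air range. Bub1b had a log2 fold change of 0.18 (SE 0.302, edgeR adjusted p = 0.809) in spleen, -0.15 with PM2.5 replicate 2 left out, and of 0.24 (SE 0.13, adjusted p = 0.538) in macrophages, 0.15 with air replicate 3 left out. Ttk, the checkpoint kinase MPS1, ranged from 1.32 to 6.92 CPM in air spleens and from 2.97 to 11.3 CPM in PM2.5 spleens. Ttk showed a log2 fold change of 0.55 (SE 0.549, edgeR adjusted p = 0.654) in spleen, -0.10 with PM2.5 replicate 2 left out, and of 0.54 (SE 0.242, adjusted p = 0.446) in macrophages, 0.38 with air replicate 3 left out.

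The chromosomal passenger complex corrects faulty attachments of chromosomes and marks the division plane, and its 4 genes were higher on average with PM2.5 in both experiments. Aurkb (chr11:69045647-69051664, plus strand) is its kinase, Aurora B. Aurkb was at 9.98, 15.7, 8.80 and 14.1 CPM in the air spleens and at 10.2, 31.8, 13.2 and 11.9 CPM in the PM2.5 spleens. Aurkb stood at 14, 19.7, 10.7, 19.8 and 19.1 CPM in the air macrophages and at 23, 24, 25, 22.4 and 30.7 CPM in the PM2.5 macrophages. Spleen PM2.5 replicate 2 alone left the air range, and the macrophage groups did not overlap. Aurkb had a log2 fold change of 0.47 (SE 0.364, edgeR adjusted p = 0.555) in spleen, -0.04 with PM2.5 replicate 2 left out, and of 0.59 (SE 0.167, adjusted p = 0.287) in macrophages, 0.46 with air replicate 3 left out. Birc5 (chr11:117849251-117855743, plus strand), survivin, binds the complex to centromeres. Birc5 was at 35.4, 26.9, 23.2 and 22.6 CPM in the air spleens and at 16.7, 95.6, 30.5 and 45.6 CPM in the PM2.5 spleens. Birc5 stood at 12.5, 21.4, 7.45, 16.1 and 26.5 CPM in the air macrophages and at 25, 29, 24.9, 19.3 and 36.2 CPM in the PM2.5 macrophages. In spleen the PM2.5 libraries lay on both sides of the air range, replicate 1 below it and replicates 2 and 4 above, and in macrophages replicates 2 and 5 exceeded theirs. Birc5 had a log2 fold change of 0.81 (SE 0.426, edgeR adjusted p = 0.369) in spleen, 0.21 with PM2.5 replicate 2 left out, and of 0.69 (SE 0.287, adjusted p = 0.413) in macrophages, 0.49 with air replicate 3 left out. Cdca8 (chr4:124918465-124939311, minus strand), borealin, is the third subunit beside survivin and INCENP. Cdca8 was at 18, 21.3, 11.3 and 17.5 CPM in the air spleens and at 15.2, 55.3, 17.1 and 23.2 CPM in the PM2.5 spleens. Cdca8 stood at 14.8, 17.3, 9.94, 19.9 and 19.3 CPM in the air macrophages and at 25, 24.3, 22.6, 19.4 and 31.6 CPM in the PM2.5 macrophages. PM2.5 spleens 2 and 4 exceeded the air spleens, and PM2.5 macrophage replicate 4 was the 1 library of its group inside the air range. Cdca8 had a log2 fold change of 0.71 (SE 0.387, edgeR adjusted p = 0.389) in spleen, 0.13 with PM2.5 replicate 2 left out, and of 0.61 (SE 0.183, adjusted p = 0.308) in macrophages, 0.46 with air replicate 3 left out. Incenp, the scaffold of the complex, had a log2 fold change of 0.51 in spleen (0.14 without replicate 2) and of 0.13 in macrophages (0.08 without air replicate 3), the smallest of the 4 there.

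The 5 kinetochore and centromere genes ranged in spleen from -0.03 to 1.29 on the log2 scale. Ndc80 (chr17:71496100-71526857, minus strand), whose protein grips the spindle microtubules, was 1 of the 2 genes with a lower mean in PM2.5 spleens. Ndc80 was at 18.6, 17.4, 13.9 and 16 CPM in the air spleens and at 12.2, 29.6, 11.2 and 11.2 CPM in the PM2.5 spleens. Ndc80 stood at 9.21, 12, 9.03, 11.8 and 11.1 CPM in the air macrophages and at 12.2, 15.2, 13.5, 11.9 and 15.3 CPM in the PM2.5 macrophages. PM2.5 spleen replicate 2 stood above every air spleen and the other 3 PM2.5 spleens below every air spleen, while 4 of the 5 PM2.5 macrophage libraries lay above the air range. Ndc80 had a log2 fold change of -0.03 (SE 0.317, edgeR adjusted p = 0.973) in spleen, -0.50 with PM2.5 replicate 2 left out, and of 0.37 (SE 0.12, adjusted p = 0.334) in macrophages, 0.31 with air replicate 3 left out. Without spleen PM2.5 replicate 2 its unadjusted p was 0.0154 and its edgeR adjusted p 0.22. Without that library 2 of the 45 genes, Ndc80 and Racgap1, had every PM2.5 spleen below every air spleen. This was a smaller share than the 1286 of all 16994 genes tested. Nuf2 (chr1:169497934-169531464, minus strand), the partner of Ndc80 in the same complex, differed from it in spleen. Nuf2 was at 14, 11.2, 7.24 and 11.6 CPM in the air spleens and at 9.64, 34.8, 9.08 and 13.3 CPM in the PM2.5 spleens. Nuf2 stood at 6.42, 8.46, 3.91, 10.6 and 10.3 CPM in the air macrophages and at 11.1, 12.3, 14.3, 11 and 15 CPM in the PM2.5 macrophages. Only PM2.5 replicate 2 left the air range in spleen, and the macrophage groups did not overlap. Nuf2 had a log2 fold change of 0.61 (SE 0.416, edgeR adjusted p = 0.498) in spleen, -0.03 with PM2.5 replicate 2 left out, and of 0.69 (SE 0.234, adjusted p = 0.345) in macrophages, 0.51 with air replicate 3 left out. Cenpf (chr1:189640606-189688086, minus strand) is a large outer kinetochore protein that gathers in G2. Cenpf was at 15.8, 14.5, 6.90 and 8.35 CPM in the air spleens and at 11.1, 69.3, 14.4 and 15.1 CPM in the PM2.5 spleens. Cenpf stood at 14.9, 28.4, 7.60, 26.1 and 32.6 CPM in the air macrophages and at 17.4, 33.5, 32.8, 29.2 and 44 CPM in the PM2.5 macrophages. The 3 other PM2.5 spleens were inside the air range, and PM2.5 macrophage replicate 1 was lower than 3 of the 5 air libraries. Cenpf had a log2 fold change of 1.29 (SE 0.56, edgeR adjusted p = 0.278) in spleen, 0.27 with PM2.5 replicate 2 left out, and of 0.53 (SE 0.345, adjusted p = 0.606) in macrophages, 0.30 with air replicate 3 left out. Cenpa (chr5:30666777-30674830, plus strand), the histone variant of centromeres, marks where kinetochores form. Cenpa was at 48.9, 52.3, 44.5 and 38.4 CPM in the air spleens and at 43.1, 76.2, 49.9 and 45.8 CPM in the PM2.5 spleens. Cenpa stood at 38.7, 41.3, 27, 41.9 and 45.5 CPM in the air macrophages and at 43.8, 47.8, 47.7, 42.8 and 52.9 CPM in the PM2.5 macrophages. Its groups overlapped in both experiments, with PM2.5 replicate 2 highest in spleen and replicate 5 highest in macrophages. Cenpa had a log2 fold change of 0.23 (SE 0.19, edgeR adjusted p = 0.592) in spleen, 0.02 with PM2.5 replicate 2 left out, and of 0.28 (SE 0.125, adjusted p = 0.445) in macrophages, 0.16 with air replicate 3 left out. Cenpe, a kinesin that moves chromosomes to the metaphase plate, had a log2 fold change of 0.90 in spleen (0.27 without replicate 2) and of 0.55 in macrophages (0.35 without air replicate 3).

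For the 7 genes of spindle assembly and its motors the median log2 fold change was 0.85 in spleen and 0.59 in macrophages. Dlgap5 (chr14:47387779-47418407, minus strand) stabilises spindle fibres at the chromosomes. Dlgap5 was at 7.04, 9.66, 3.74 and 7.41 CPM in the air spleens and at 8.81, 45.2, 7.64 and 11.1 CPM in the PM2.5 spleens. Dlgap5 stood at 10.7, 17, 5.35, 17 and 21.1 CPM in the air macrophages and at 14.1, 23, 20.7, 20 and 28.4 CPM in the PM2.5 macrophages. PM2.5 spleens 2 and 4 lay above the air spleens, and replicates 2 and 5 above the air macrophages. Dlgap5 had a log2 fold change of 1.39 (SE 0.557, edgeR adjusted p = 0.247) in spleen, 0.42 with PM2.5 replicate 2 left out, and of 0.59 (SE 0.305, adjusted p = 0.516) in macrophages, 0.37 with air replicate 3 left out. Tpx2 (chr2:152847964-152895321, plus strand) activates Aurora A and starts microtubules near chromosomes. Tpx2 was at 32.9, 19.8, 16.7 and 21.6 CPM in the air spleens and at 23, 71.1, 21.3 and 28.7 CPM in the PM2.5 spleens. Tpx2 stood at 18.5, 25.8, 10.9, 27.7 and 28.7 CPM in the air macrophages and at 29.4, 35.8, 35.3, 29.8 and 45.1 CPM in the PM2.5 macrophages. In spleen replicate 2 alone exceeded the air range, and in macrophages the lowest PM2.5 library lay above the highest air library. Tpx2 had a log2 fold change of 0.67 (SE 0.377, edgeR adjusted p = 0.404) in spleen, 0.12 with PM2.5 replicate 2 left out, and of 0.66 (SE 0.23, adjusted p = 0.358) in macrophages, 0.48 with air replicate 3 left out. Kif2c (chr4:117159639-117182639, minus strand) takes microtubules apart at centromeres. Kif2c was at 13.5, 9.56, 8.18 and 11 CPM in the air spleens and at 11.3, 26.4, 8.18 and 9.33 CPM in the PM2.5 spleens. Kif2c stood at 6.02, 8.88, 4.22, 10.1 and 8.97 CPM in the air macrophages and at 10.3, 12.8, 9.78, 10.2 and 11.4 CPM in the PM2.5 macrophages. PM2.5 macrophage replicate 3 was the 1 PM2.5 library inside the air range. Kif2c had a log2 fold change of 0.39 (SE 0.361, edgeR adjusted p = 0.623) in spleen, -0.11 with PM2.5 replicate 2 left out, and of 0.53 (SE 0.209, adjusted p = 0.396) in macrophages, 0.36 with air replicate 3 left out. Nusap1 (chr2:119618298-119651244, plus strand) bundles spindle microtubules. Nusap1 was at 27.8, 20.5, 14.3 and 16.3 CPM in the air spleens and at 17.7, 88.5, 18.6 and 26.8 CPM in the PM2.5 spleens. Nusap1 stood at 15.7, 23.9, 10.5, 23.1 and 30.4 CPM in the air macrophages and at 23.3, 31.5, 29.7, 22.8 and 38.7 CPM in the PM2.5 macrophages. Spleen replicate 2 stood over 3 times above every other spleen, and the macrophage groups overlapped. Nusap1 had a log2 fold change of 0.95 (SE 0.483, edgeR adjusted p = 0.352) in spleen, 0.11 with PM2.5 replicate 2 left out, and of 0.51 (SE 0.251, adjusted p = 0.502) in macrophages, 0.33 with air replicate 3 left out. Of the other 3, Kif11, the motor that pushes spindle poles apart, had log2 fold changes of 0.85 and 0.56 in spleen and macrophages, Kif4, a motor on chromosome arms, of 0.82 and 0.66, and Hmmr, a spindle pole protein, of 1.17 and 0.76. Without spleen PM2.5 replicate 2 the spleen values of these 3 were 0.11, -0.02 and 0.40, and without air replicate 3 the macrophage values were 0.40, 0.50 and 0.55.

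**Figure D4:**
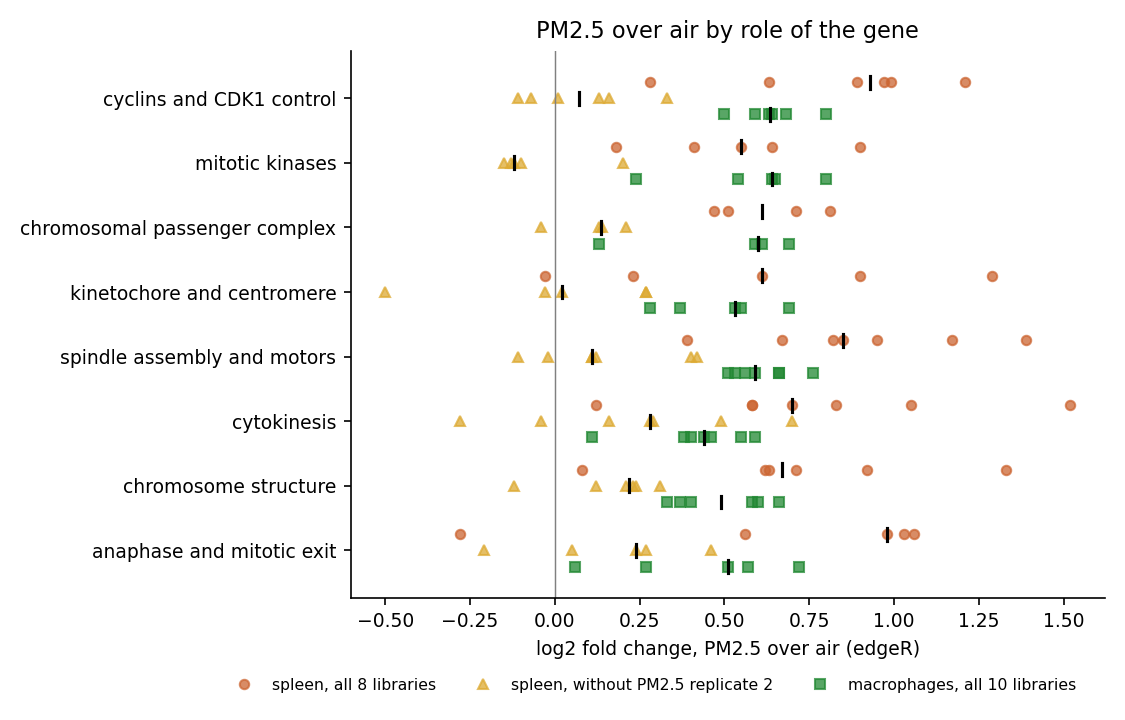
Log2 fold change of each of the 45 genes, PM2.5 over air, from edgeR (horizontal axis), by role (vertical axis). Orange circles are spleen with all 8 libraries, yellow triangles spleen without PM2.5 replicate 2, green squares macrophages with all 10 libraries, and black bars medians. The yellow medians lie between -0.12 and 0.28 and the green ones between 0.44 and 0.64.

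Among the 7 genes of cytokinesis was the 1 gene whose spleen groups did not overlap. Kif20b (chr19:34922361-34975745, plus strand) is a kinesin of the midzone and midbody. Kif20b was at 17.3, 13.2, 14.6 and 11.5 CPM in the air spleens and at 20.6, 25.6, 18 and 20.2 CPM in the PM2.5 spleens. Kif20b stood at 14.2, 16.6, 12.6, 18.6 and 16.8 CPM in the air macrophages and at 12.6, 22, 19.4, 24.5 and 23.5 CPM in the PM2.5 macrophages. Each PM2.5 spleen lay above each air spleen (1 of the 45 genes, 2.22%, against 4.31% of all genes tested), and the macrophage groups overlapped because PM2.5 replicate 1 matched the lowest air library. Kif20b had a log2 fold change of 0.58 (SE 0.182, edgeR adjusted p = 0.163) in spleen, 0.49 with PM2.5 replicate 2 left out, and of 0.38 (SE 0.17, adjusted p = 0.446) in macrophages, 0.30 with air replicate 3 left out. Racgap1 (chr15:99620496-99651656, minus strand), part of the centralspindlin complex of the midzone, resembled Ndc80 in spleen. Racgap1 was at 39.2, 43.9, 41.6 and 38.2 CPM in the air spleens and at 36.6, 77.1, 31.1 and 32.1 CPM in the PM2.5 spleens. Racgap1 stood at 31.4, 34.1, 24.6, 38.9 and 35.8 CPM in the air macrophages and at 36.8, 45.6, 42.9, 44.1 and 47.7 CPM in the PM2.5 macrophages. PM2.5 replicate 2 stood above the air spleens and the other 3 PM2.5 spleens below them, while 4 of the 5 PM2.5 macrophage libraries lay above the air range. Racgap1 had a log2 fold change of 0.12 (SE 0.271, edgeR adjusted p = 0.855) in spleen, -0.28 with PM2.5 replicate 2 left out, and of 0.40 (SE 0.118, adjusted p = 0.297) in macrophages, 0.30 with air replicate 3 left out. Its partner Kif23 in centralspindlin had log2 fold changes of 0.58 in spleen (0.16 without PM2.5 replicate 2) and 0.11 in macrophages (0.05 without air replicate 3). Anln, anillin, which scaffolds the contractile ring, had the largest spleen value of the 45, 1.52 (SE 0.573, edgeR adjusted p = 0.222), which was 0.70 without replicate 2, and 0.44 in macrophages (0.24 without air replicate 3). Ect2, which activates RhoA at the division plane, Prc1, which bundles midzone microtubules, and Kif20a, a midzone kinesin, had spleen values of 0.70, 1.05 and 0.83 and macrophage values of 0.46, 0.55 and 0.59. Without spleen PM2.5 replicate 2 the spleen values of these 3 were -0.04, 0.29 and 0.28, and without air replicate 3 the macrophage values were 0.32, 0.36 and 0.44. Of the exon bases of Kif20a, 29.3% are also exons of Cdc23 on the opposite strand, and the labels do not say whether counting used strand.

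Genes of chromosome structure made up the largest part of the summed level, mostly through Mki67, Smc4 and Top2a. Mki67 (chr7:135689784-135716361, minus strand) encodes Ki-67, which coats mitotic chromosomes and is the standard marker of cycling cells. Mki67 was at 129.6, 123, 80.2 and 103 CPM in the air spleens and at 117, 686, 122 and 159 CPM in the PM2.5 spleens. Mki67 stood at 159, 279, 76.5, 280.4 and 404 CPM in the air macrophages and at 142, 412, 391, 317 and 547 CPM in the PM2.5 macrophages. In PM2.5 spleen replicate 2 it made up 18.8% of the sum of the 45 genes, against 8.16% to 11.4% in the other spleens. PM2.5 macrophage replicate 1 lay below every air library but replicate 3, and the groups overlapped. Mki67 had a log2 fold change of 1.33 (SE 0.523, edgeR adjusted p = 0.241) in spleen, 0.31 with PM2.5 replicate 2 left out, and of 0.60 (SE 0.411, adjusted p = 0.621) in macrophages, 0.36 with air replicate 3 left out. Top2a (chr11:98992943-99024189, minus strand), topoisomerase II alpha, untangles sister chromatids. Top2a was at 101, 95.7, 49.5 and 66.6 CPM in the air spleens and at 80.7, 259.5, 78.4 and 91.3 CPM in the PM2.5 spleens. Top2a stood at 77.3, 103, 55, 132 and 114 CPM in the air macrophages and at 100.2, 162, 141, 134 and 178 CPM in the PM2.5 macrophages. The 3 other PM2.5 spleens stayed inside the air range, and PM2.5 macrophage replicates 2 to 5 lay above all air macrophages. Top2a had a log2 fold change of 0.71 (SE 0.39, edgeR adjusted p = 0.387) in spleen, 0.12 with PM2.5 replicate 2 left out, and of 0.58 (SE 0.217, adjusted p = 0.381) in macrophages, 0.42 with air replicate 3 left out. Smc4 (chr3:69004738-69034623, plus strand) is the ATPase core of condensin. Smc4 was at 226, 188, 231 and 176 CPM in the air spleens and at 200.1, 306, 185 and 176 CPM in the PM2.5 spleens. Smc4 stood at 93.9, 104, 80.5, 107 and 119 CPM in the air macrophages and at 105, 135, 122, 131 and 139.6 CPM in the PM2.5 macrophages. It varied less than Mki67, and PM2.5 macrophage replicate 1 was again the 1 library of its group inside the air range. Smc4 had a log2 fold change of 0.08 (SE 0.187, edgeR adjusted p = 0.863) in spleen, -0.12 with PM2.5 replicate 2 left out, and of 0.33 (SE 0.109, adjusted p = 0.335) in macrophages, 0.25 with air replicate 3 left out. The other condensin genes, Smc2, Ncapg and Ncapd2, had spleen values of 0.63, 0.92 and 0.62 (0.23, 0.24 and 0.21 without replicate 2) and macrophage values of 0.37, 0.66 and 0.40 (0.28, 0.46 and 0.28 without air replicate 3).

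The genes of anaphase and mitotic exit held the other gene with a lower mean in PM2.5 spleens, Pttg1. Cdc20 (chr4:118432901-118437352, minus strand) activates the anaphase-promoting complex, and 10.59% of its 50-base runs also occur in the pseudogene Gm7856. Cdc20 was at 17.6, 22.4, 8.32 and 21.7 CPM in the air spleens and at 18.6, 49.1, 13.5 and 21.7 CPM in the PM2.5 spleens. Cdc20 stood at 11.7, 16.8, 7.49, 20.6 and 17.1 CPM in the air macrophages and at 26.5, 24.9, 21.2, 21.8 and 26.5 CPM in the PM2.5 macrophages. Spleen replicate 2 alone exceeded the air range, and the macrophage groups did not overlap. Cdc20 had a log2 fold change of 0.56 (SE 0.41, edgeR adjusted p = 0.528) in spleen, 0.05 with PM2.5 replicate 2 left out, and of 0.72 (SE 0.221, adjusted p = 0.308) in macrophages, 0.54 with air replicate 3 left out. Pttg1 (chr11:43420250-43426251, minus strand) encodes securin, the inhibitor of separase that this complex destroys. Pttg1 was at 48.7, 33.6, 36 and 37.8 CPM in the air spleens and at 24.8, 29.2, 33.9 and 40.9 CPM in the PM2.5 spleens. Pttg1 stood at 28.9, 26.9, 25.4, 22.9 and 32.7 CPM in the air macrophages and at 36.5, 29.9, 26.2, 22.7 and 26.7 CPM in the PM2.5 macrophages. Spleen PM2.5 replicates 1 and 2 lay below all air spleens, and in macrophages PM2.5 replicates 1 and 4 were the highest and the lowest of the 10 libraries. Pttg1 had a log2 fold change of -0.28 (SE 0.175, edgeR adjusted p = 0.453) in spleen, -0.21 with PM2.5 replicate 2 left out, and of 0.06 (SE 0.133, adjusted p = 0.895) in macrophages, 0.02 with air replicate 3 left out. Espl1 (chr15:102296266-102324357, plus strand) is separase itself, which cuts cohesin. Espl1 was at 8.66, 16.2, 9.22 and 10.7 CPM in the air spleens and at 15.5, 42.3, 13.1 and 17.3 CPM in the PM2.5 spleens. Espl1 stood at 23.8, 27.5, 18.5, 28 and 30.4 CPM in the air macrophages and at 19.9, 38, 31.1, 24 and 40.9 CPM in the PM2.5 macrophages. PM2.5 spleens 2 and 4 lay above the air spleens, and PM2.5 macrophage replicates 1 and 4 inside the air range. Espl1 had a log2 fold change of 0.98 (SE 0.373, edgeR adjusted p = 0.225) in spleen, 0.46 with PM2.5 replicate 2 left out, and of 0.27 (SE 0.196, adjusted p = 0.636) in macrophages, 0.16 with air replicate 3 left out. Cdca3 (chr6:124829547-124833701, plus strand) is a mitotic entry protein cleared at mitotic exit. Cdca3 was at 19.2, 23.2, 13 and 16.3 CPM in the air spleens and at 16.2, 82.5, 20 and 26.4 CPM in the PM2.5 spleens. Cdca3 stood at 13.4, 22.5, 6.78, 20.5 and 26.1 CPM in the air macrophages and at 24.9, 27.6, 24.4, 16.5 and 32.9 CPM in the PM2.5 macrophages. PM2.5 spleens 2 and 4 and PM2.5 macrophages 2 and 5 exceeded their air ranges. Cdca3 had a log2 fold change of 1.03 (SE 0.461, edgeR adjusted p = 0.293) in spleen, 0.24 with PM2.5 replicate 2 left out, and of 0.51 (SE 0.303, adjusted p = 0.568) in macrophages, 0.29 with air replicate 3 left out. Ube2c, the ubiquitin-conjugating enzyme of the anaphase-promoting complex, had log2 fold changes of 1.06 in spleen (0.27 without replicate 2) and 0.57 in macrophages (0.35 without air replicate 3), and 22.8% of its exon bases overlap Tnnc2 on the opposite strand.

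The 2 PM2.5 differences were compared in 1 edgeR fit of all 18 libraries, as the macrophage difference minus the spleen difference. No gene of the 45 was called and 0 had an unadjusted p under 0.05, against 259 genes called of 17779 tested (1.46%) and 20.6% at an unadjusted p under 0.05. The median over the 45 was -0.22 on the log2 scale, with 13 above 0 (28.9%, against 47.3% of all genes tested), beside -0.03 over all genes tested. DESeq2 called 0 of the 45 and 5.87% of all genes tested. Mki67 had a difference of -0.72 (SE 0.71, adjusted p = 0.6), Anln of -1.07 (SE 0.667, adjusted p = 0.374) and Ndc80 of 0.40 (SE 0.332, adjusted p = 0.521). The sign of this median was not stable. With all 18 libraries kept it was 0.12 with limma-voom (31 of the 45 above 0) and 0.05 with replicate number as a block (25 above 0). Without any 1 library other than spleen PM2.5 replicate 2 it lay between -0.38 and -0.06. Without that spleen the median was 0.46, 40 of the 45 lay above 0, and 2 genes were called with a larger value in macrophages, Ndc80 at 0.88 (SE 0.198, adjusted p = 0.0328) and Racgap1 at 0.69 (SE 0.172, adjusted p = 0.0473), 4.44% of the 45 against 0.495% of all genes tested. In that fit 5 of the 45 had a larger value in macrophages with an unadjusted p under 0.05 (11.1%), near the 10.5% of all genes tested.

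Levels in the air groups were compared between genes per length, as CPM per kilobase of exon. In air spleens Smc4 was highest of the 45 at 39.4 ± 5.27 CPM per kb (SD, n = 4), followed by Cks2 at 28.9 ± 11.4, Pttg1 at 19.5 ± 3.35 and Mki67 at 10.8 ± 2.22. Smc4 and Cks2 did not differ beyond their spread, and from Mki67 on down the order of neighbours also lay within it, through Ube2c at 10 ± 1.83, Ncapd2 at 9.45 ± 1.62 and Cdc20 at 9.36 ± 3.46. Lowest were Cdc25c at 0.48 ± 0.286, Anln at 0.577 ± 0.307 and Cenpf at 0.737 ± 0.285. In air macrophages Mki67 was first at 23.8 ± 12.5 CPM per kb (SD, n = 5), then Cks2 at 20.2 ± 3.60, Smc4 at 19.4 ± 2.80 and Incenp at 16.7 ± 2.35, 4 levels within each other's spread, and Cdc25c was again last at 0.49 ± 0.262.

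Between the air groups, edgeR called 15 of the 45 genes (33.3%) where it called 10800 of 16096 tested (67.1%). Of the 15, 9 were higher in macrophages (20%, against 32.7% of all genes tested) and 6 lower (13.3%, against 34.4%), and the median log2 fold change over the 45 was 0.09. DESeq2 called 17 of the 45 (37.8%, against 68.8%). Kif23 was higher by 0.96 on the log2 scale (SE 0.147, edgeR adjusted p = 0.000125), Incenp by 1.11 (adjusted p = 0.000243) and Espl1 by 1.13 (adjusted p = 0.000474), and for these 3 the air groups did not overlap (6.67% of the 45, against 32.1% of all genes tested). The other higher genes were Anln, Mki67, Hmmr, Dlgap5, Prc1 and Bub1b, at 0.47 to 1.21. Smc4 fell by 1.10 on the log2 scale from spleen to macrophages (SE 0.132, edgeR adjusted p = 1.81e-05), with Ndc80 at -0.70 and Pttg1 at -0.58, and for these 3 the groups did not overlap either (6.67%, against 27.4%). Racgap1, Birc5 and Cks2 were lower at -0.37, -0.76 and -0.59. The direction split depended on the scaling. With upper-quartile scaling, which moved the median of all genes to -0.26, 13 of the 45 were called, 3 higher and 10 lower, and the median over the 45 was -0.15. The count of 15 was 7 without air spleen 3, 8 without air spleen 4, 9 without air macrophage 2 and 8 without air macrophage 5. The shares of all genes called under that scaling and in these fits are not given here. No change particular to the 45 is read from these counts. Material and experiment cannot be told apart in this comparison, and it shares its air libraries with the PM2.5 comparisons.

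**Figure D5:**
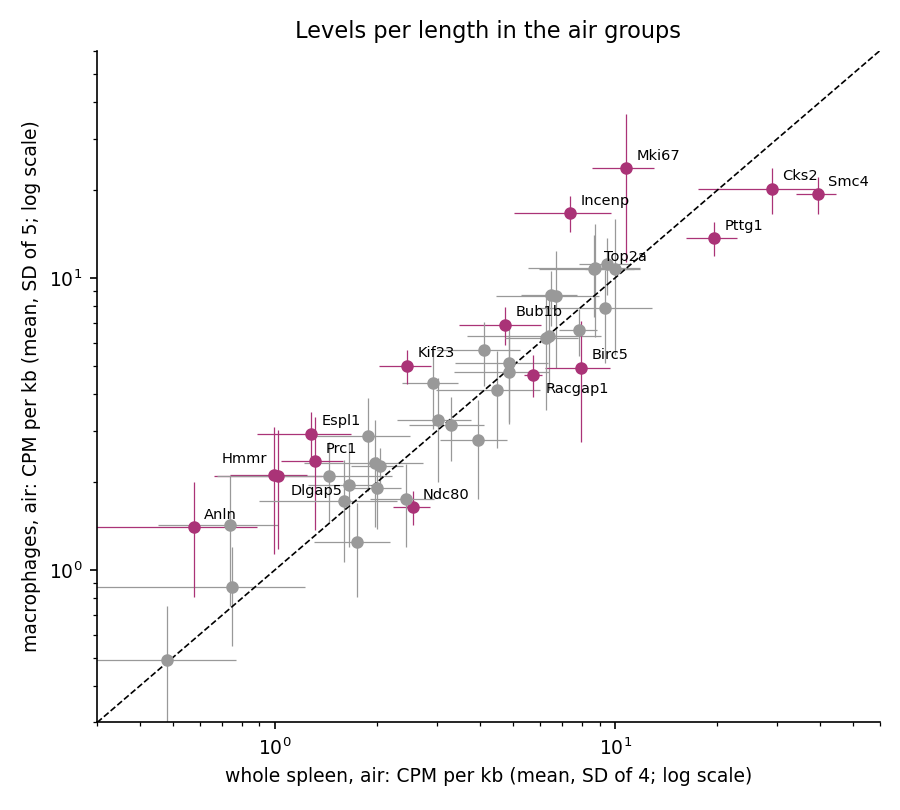
Mean level of each of the 45 genes in air macrophages (vertical axis, 5 libraries) against air spleens (horizontal axis, 4 libraries) in CPM per kb on log scales, with SD bars cut at the lower axis limit and the line of equal levels. Purple points are the 15 genes called by edgeR between the air groups. Smc4, Cks2 and Pttg1 lie below the line and Mki67, Incenp, Kif23 and Espl1 above it.

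Other genes of the cell cycle were read from lists fixed for this report, and edgeR called none of them in either exposure comparison (0.0121% of all genes tested in spleen and 0% in macrophages). Of 62 other mitosis genes, 55 had a higher mean in PM2.5 spleens (median log2 fold change 0.59) and 62 in PM2.5 macrophages (median 0.50), with 12 and 39 higher at an unadjusted p under 0.05 (against 8.93% and 6.24% of all genes tested). In spleen 1 of the 62 was lower at that threshold and without overlap, Pimreg at -0.64 (SE 0.263, adjusted p = 0.261) in edgeR, named after its values were seen. In spleen the groups did not overlap for 3 of the 62 on the higher side (4.84%, against 4.31% of all genes tested). On the lower side they did not for Pimreg alone, against 4.66% of all genes tested. The smallest p-values in spleen were those of Kntc1, which recruits checkpoint proteins, at 1.16 (SE 0.359, adjusted p = 0.153), and Esco2, which acetylates cohesin, at 1.44 (SE 0.47, adjusted p = 0.171), both from edgeR and both without overlap between the groups. In macrophages they were those of Plk4, the kinase of centriole duplication, at 0.48 (SE 0.104, adjusted p = 0.258), and Spc24, of the Ndc80 complex, at 0.75 (SE 0.17, adjusted p = 0.258), from edgeR. Genes of S phase and DNA replication, the step before G2, were higher on average for 37 of 45 in spleen (median 0.23) and 45 of 45 in macrophages (median 0.42, 31 higher at an unadjusted p under 0.05 against 6.24% of all genes tested, 12 called by DESeq2 against 1.11%). Tk1, thymidine kinase, had a spleen value of 0.54 (SE 0.227, adjusted p = 0.262) and Cdc6, which loads the replicative helicase, of 1.42 (SE 0.598, adjusted p = 0.267), and in macrophages Mcm6 of that helicase stood at 0.50 (SE 0.1, adjusted p = 0.258) and Dut, which clears dUTP, at 0.72 (SE 0.145, adjusted p = 0.258) in edgeR. Without spleen PM2.5 replicate 2 the spleen median was -0.05 for the S phase list and 0.10 for the other mitosis genes.

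Of the 20 tested regulators of these genes, 12 were higher on average in PM2.5 spleens and 17 in PM2.5 macrophages, with medians of 0.07 and 0.14. Foxm1 stood at 0.70 (SE 0.313, adjusted p = 0.293) in spleen and 0.35 (SE 0.241, adjusted p = 0.623) in macrophages as edgeR log2 fold changes. Mybl2, which encodes B-MYB, was at 0.90 (SE 0.506, adjusted p = 0.405) in spleen and at 0.75 (SE 0.282, adjusted p = 0.381) in macrophages. Tfdp2 and E2f1 had the smallest p-values of the list in spleen (log2 fold changes 1.58 and 0.79), and Tfdp1 and Lin9 in macrophages (0.35 and 0.31). Subunits of the anaphase-promoting complex, listed with its partners Fzr1 and Ube2s, stayed close to all genes. Of these 16 genes, 6 were higher in spleen (median -0.07) and 14 in macrophages (median 0.06). Cdc26 was at -0.31 and Fzr1 at 0.67 in spleen, and Anapc5 at 0.10 and Ube2s at 0.21 in macrophages. G1 cyclins and kinases were higher for 8 of 10 in spleen (median 0.13) and 7 of 10 in macrophages (median 0.20), and inhibitors of the cell cycle for 8 of 15 (0.02) and 10 of 15 (0.13). Ccnd2, cyclin D2, was at -0.30 in spleen and -0.07 in macrophages, and Cdc25b at 0.60 in spleen. Ccne1, cyclin E1, was at 0.97 (SE 0.25, adjusted p = 0.272) and Ccnd1, cyclin D1, at -0.59 (SE 0.188, adjusted p = 0.327) in macrophages in edgeR. Cdkn1a, the inhibitor p21, was at -0.02 (SE 0.229, adjusted p = 0.978) in spleen and -0.06 (SE 0.168, adjusted p = 0.917) in macrophages in edgeR, and Cdkn1b, the inhibitor p27, at 0.18 and -0.02. Btg1 and Ccng2 led the inhibitors in spleen at -0.31 and -0.20, and Wee1 and Trp53inp1 in macrophages at 0.45 and 0.64, none with an adjusted p under 0.05. Between the air groups, 3 of 45 S phase genes were called higher in macrophages and 16 lower (against 32.7% and 34.4% of all genes tested), among them Pola1 of DNA polymerase alpha at 0.96 and Dut at -1.65 on the log2 scale. Of the 62 other mitosis genes 10 were called higher and 15 lower, with the same shares of all genes behind them, led by Ncapg2, a condensin II subunit, at 1.64 and Mis18a, of centromere assembly, at -0.79.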

How the data were processed

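Gene counts of 18 libraries were analysed, as deposited by the authors in 1 table of raw read counts per Ensembl gene. Per the submitters' processing notes the builds were mm10 and GRCm38, and FastQC 0.10.1 and HTSeq 0.10.0 were used. The labels name no aligner and no strand setting, and counts of genes with pseudogenes or opposite-strand neighbours are uncertain to that extent. The labels' protocols name a Qiagen RNA kit and the NEBNext Ultra II library kit.

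Symbols came from GENCODE M21. Of the 45 genes, 13 share exon bases with another gene and 10 share over 10% of their 50-base runs with one. The members and lists were chosen with earlier results of these data known. Each comparison was fitted over all genes with edgeR 4.0.16 in R 4.3.3 (genes kept by filterByExpr at 10 counts and 15 in total, TMM, quasi-likelihood test, two-sided, Benjamini-Hochberg adjustment, threshold 0.05), spleen and macrophages separately, the difference in a joint fit. Alternatives were DESeq2 1.42.0, limma-voom 3.58.1, other scalings, no filter, a threshold of 0.1, a joint fit, a replicate block, the tag of 1 macrophage library, and libraries left out. An SE is the fold change divided by the root of the F statistic. Full values per library are given for the gene with the smallest p of each role in each exposure fit, for Mki67, Top2a, Cdk1, Ccnb1 and Plk1, and for genes against the direction of most, and also, chosen after values were seen, for Cdc25c, Bub1b, Cdca8, Nuf2, Cenpa, Kif2c, Nusap1 and Cdca3. Of the other pathway lists the called genes (up to 3 a direction) or the 2 with the smallest p are named with Foxm1, Mybl2, Cdkn1a, Cdkn1b and Ccnd2, and of the marker lists the 2 with the highest level. E2f2 and the markers at 0 in a whole group are named as well. The fit was tested on simulated counts with planted changes. Of genes changed 2-fold, 41.8% were recovered in the spleen design (16098 genes) and 83.6% in the macrophage design (15493 genes). Of genes changed 1.5-fold, 7.46% and 44.8% were. Recovery of such changes in the deposited counts, where libraries stood apart within both experiments, was not tested.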

Additional observations from a re-analysis of the deposited data

Results flagged for a closer look

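Libraries far from the others of their group were looked for with Dixon's ratio, the gap to the nearest library over the whole range, in 96 sets of values, and 16 were past its 95% critical value. Chance alone passes it in about 1 group in 20, and genes of a list share their libraries.

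Of the 16, 15 were spleen PM2.5 replicate 2, always as the highest library. The ratio was 0.892 for the sum of the 45 genes (3643 CPM) and 0.876 for the S phase sum (2989 CPM). Among the single genes it was 0.944 for Ndc80, 0.932 for Cenpf, 0.929 for Top2a, 0.927 for Mki67, 0.908 for Dlgap5, 0.893 for Bub1, 0.880 for Racgap1, 0.874 for Plk1, 0.862 for Aurkb, 0.858 for Espl1, 0.855 for Ccnb1, 0.852 for Tpx2 and 0.833 for Ccna2. Over all 45 genes this library was past the critical value for 28.

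The remaining one was Cks2 in air spleen replicate 1, the highest of its group at 31.8 CPM, with a ratio of 0.832. No macrophage library was past the critical value in the values looked at.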

How the results depend on the processing

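Depth allowed all 45 genes to enter every test, and the number of libraries limits the precision. In spleen the SE also depended on PM2.5 replicate 2. With that library left out it went from 0.523 to 0.175 for Mki67 and from 0.428 to 0.229 for Cdk1. It became smaller for every gene of the 45 but Pttg1, where it went from 0.175 to 0.187. Among the alternatives run, the median over the 45 genes stayed above 0 in both exposure comparisons except in spleen without PM2.5 replicates 2 and 4, where it was -0.05.

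In spleen the count of called genes was 2, and it was 1 with DESeq2's size factors in edgeR, 830 with DESeq2 (1 of the 45), 1 with limma-voom, 461 with no filter, 62 at a threshold of 0.1, 1050 in the joint fit, 0 without air replicates 3 and 4 and 0 without PM2.5 replicates 2 and 4, and with 1 library left out it ranged from 0 to 219 (219 without air replicate 2, 136 without PM2.5 replicate 1, 0 to 2 without any other). In macrophages it was 0, and it was 175 with DESeq2 (2 of the 45), 1 with no filter and 0 to 17 with 1 library left out (17 without air replicate 4, 3 without PM2.5 replicate 2, 0 without any other).

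For the difference between the experiments 259 genes were called, against 1044 with DESeq2, 3 with limma-voom, 1102 at a threshold of 0.1, 48 without spleen PM2.5 replicates 2 and 4 (median over the 45 genes 0.62), 87 with macrophage PM2.5 replicate 1 counted as air and 68 (without spleen air replicate 3) to 1317 (without spleen air replicate 2) with 1 library left out, which also moved the median from -0.38 to 0.46 and the called genes of the 45 from 0 to 2. Between the air groups 15 of the 45 were called, 7 without air spleens 3 and 4 and 7 to 17 with 1 library left out. The shares of all genes called in those fits are not given beside these counts.

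With replicate number as a replicate block, edgeR called 3 genes in spleen, 0 in macrophages, 91 in the difference and 9732 between the air groups, and 0, 0, 0 and 13 of the 45. The block turned the median difference between the experiments over the 45 from -0.22 to 0.05, and limma-voom gave 0.12. Same-numbered air and PM2.5 libraries had correlations of -0.14 to 0.08 in spleen and -0.15 to 0.33 in macrophages. Spleen replicate 3 and macrophage replicates 4 and 5 (0.33 and 0.30) correlated best with their own number and the others did not, so the numbers were not taken as pairs.

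Some single genes changed sign. In spleen without PM2.5 replicates 2 and 4 the log2 fold change was -0.24 for Cdk1, -0.06 for Ccnb1, -0.30 for Plk1, -0.38 for Cks2, -0.22 for Aurka, -0.21 for Bub1, -0.18 for Birc5, -0.05 for Aurkb, -0.02 for Tpx2, -0.25 for Racgap1, -0.08 for Smc4 and -0.11 for Cdc20. Racgap1 was at -0.00 with limma-voom. Pttg1 was at -0.14 in macrophages with PM2.5 replicate 1 counted as air. Leaving out 1 library gave a range in spleen of -0.07 to 0.87 for Cdk1, -0.13 to 0.87 for Plk1, -0.11 to 0.58 for Cks2, -0.12 to 0.57 for Bub1, -0.04 to 0.64 for Aurkb, -0.28 to 0.26 for Racgap1, -0.12 to 0.17 for Smc4 and -0.50 to 0.11 for Ndc80, and in macrophages of -0.06 to 0.12 for Pttg1. The cause was not tested.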
